A study of Rattus norvegicus with 61 samples.

Results

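Neutrophils and monocytes are phagocytes that arise from common myeloid progenitors in the bone marrow. They share much of their equipment for engulfing and killing microbes, such as Fc receptors, pattern recognition receptors and the NADPH oxidase, and part ways in their granule contents, their lifespan and the capacity of monocytes to become macrophages. A transcript that both cell types carry at a similar level marks the pair against lymphocytes, but it cannot tell one of the pair from the other when the composition of a tissue is estimated from its RNA. The 100 transcripts described here were chosen as of that kind by their group means, which single samples did not always follow. Their levels were followed from sorted cells into whole blood cells, spleen and injured liver.

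The 100 transcripts were chosen from 31196 by their values in the sorted cells and in the livers. Levels are given in CPM, that is, a value divided by the total of its sample and multiplied by 1000000. A transcript qualified when its mean was under 1 CPM over the 15 livers and at least 2 CPM in both neutrophils and monocytes, and when the neutrophil mean plus 1 divided by the monocyte mean plus 1 lay within a factor of 1.5 in either direction. The lower of both means plus 1, divided by the highest mean among B cells, NK cells, CD4 T cells and CD8 T cells plus 1, is called r here. It had to exceed 1.5, which 113 transcripts achieved, and the 100 with the highest r were taken and ranked by it. The myeloid to lymphocyte contrast, the near equality of neutrophils and monocytes and the low liver mean are therefore properties of the choice, and they are described without a test.

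All samples came from wild-type (WT) male Sprague-Dawley rats, which the methods describe as 6 weeks old when purchased. B cells (CD45RA+), NK cells (CD161+), CD4 T cells and CD8 T cells (CD3+) were sorted from the spleen as CD45+/CD11b- cells, and neutrophils (CD43int/SSC-high) and monocytes (SSC-low) were sorted from the blood as CD45+/CD11b+ cells negative for CD3, CD45RA and CD161, all from untreated rats and with 6 samples per cell type. Whole blood cells (WBC, 5 samples) and spleen cells (5 samples) were from untreated rats after lysis of erythrocytes. The 15 livers were perfused pieces of the largest lobe, taken 24 h after gavage of fasted rats with acetaminophen (APAP, 3 g/kg, 5 livers), 4,4'-methylene dianiline (MDA, 300.0 mg/kg, 5 livers) or the vehicle, 0.5% methylcellulose (control, 5 livers). The labels do not say whether replicates of a group were separate animals, so p-values measure the spread between these samples, which may in part be technical. The deposited identifiers are Ensembl transcripts without gene names, and 0 of them matched the gene list at hand, so neither the roles of the transcripts nor the defining markers of the sorted cells could be checked. Transcripts are given by identifier or by rank of r.

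The totals of the deposited values lay between 9510256 and 14146402 per sample, except for neutrophil replicate 5 with 3429971. The lowest correlation of log2(CPM + 1) within a group was 0.930, between NK cell samples, and no 2 samples were identical. The values behave as length-corrected estimates and not as reads: among 1623 transcripts seen in only 4 to 8 samples, the smallest step above 0 spanned 0.266 to 7.99 (5th to 95th percentile of the 1034 transcripts whose 2 lowest values were within 15% of each other). CPM is therefore a level per length, and counting intervals given below are approximate and cover counting error only. They take estimated counts as reads, so they are too narrow where 1 read stands for more than 1 estimated count.

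In the sorted cells, the 100 transcripts together made up 0.375% of the neutrophil total and 0.346% of the monocyte total. Their summed level was 3751 ± 614 CPM in neutrophils (SD, n = 6) and 3459 ± 157 CPM in monocytes (n = 6). The lymphocytes had 686 ± 54.0 CPM in NK cells, 566 ± 45.2 CPM in B cells, 492 ± 72.0 CPM in CD4 T cells and 474 ± 114 CPM in CD8 T cells (n = 6 each). The lowest neutrophil sample, at 2985 CPM, was above the highest lymphocyte sample, at 769 CPM. The spread within neutrophils came with replicates 1 and 2, at 3030 and 2985 CPM, while the other 4 lay between 3823 and 4472 CPM. The spread within CD8 T cells came with replicates 3 and 5, at 599 and 641 CPM against 393 to 413 CPM in the other 4. Leaving out those CD8 T cell replicates kept 99 of the 100 members.

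**Figure D1:**
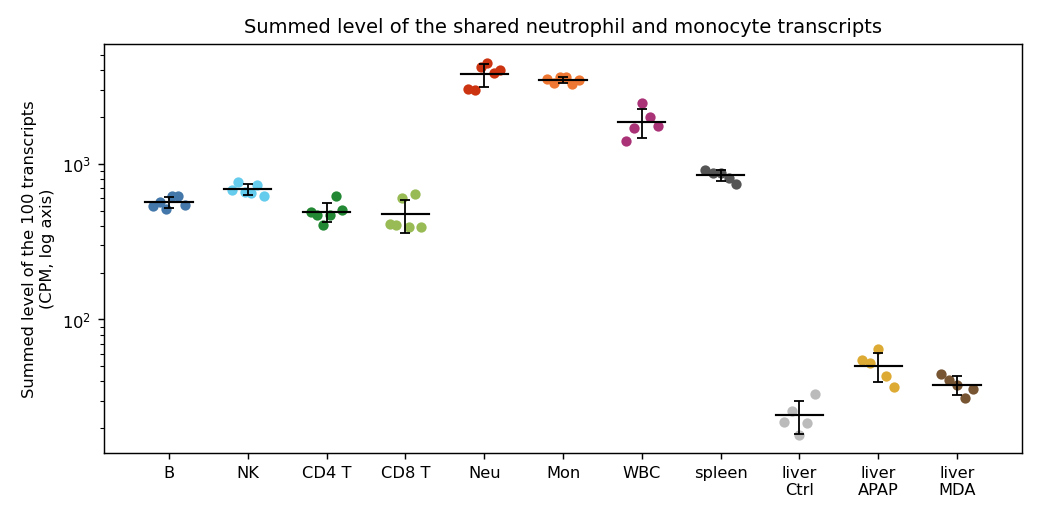
Summed level of the 100 transcripts in each of the 61 samples (points, CPM on a log axis) with the mean (horizontal line) and SD (error bars) of each group; liver groups are control (Ctrl), APAP and MDA. Neutrophils (2985 to 4472 CPM) and monocytes (3236 to 3629 CPM) overlap, whole blood cells (1404 to 2456 CPM) and spleen (747 to 917 CPM) lie below them, and the livers lie between 18.2 and 64.6 CPM.

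The transcript with the highest r, ENSRNOT00000077186 (r = 19.3), was also the highest of the 100 in both myeloid types. It ranged from 201 to 308 CPM in neutrophils with a median of 252 CPM, and from 205 to 281 CPM in monocytes with a median of 251 CPM. In NK cells it ranged from 7.27 to 16.3 CPM (median 12.3), in B cells from 8.20 to 10.8 CPM (median 9.86), in CD4 T cells from 3.54 to 11.2 CPM (median 8.03) and in CD8 T cells from 3.84 to 22.9 CPM (median 6.68). Both myeloid types thus overlapped fully, and every one of their 12 samples was above every one of the 24 lymphocyte samples.

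ENSRNOT00000038898 (rank 2, r = 18.4) ranged from 75.4 to 135 CPM in neutrophils (median 106) and from 53.9 to 88.7 CPM in monocytes (median 73.9). Its lymphocyte medians were 3.00 CPM in NK cells, 0.934 CPM in B cells, 1.47 CPM in CD4 T cells and 1.38 CPM in CD8 T cells, and the highest lymphocyte sample had 5.28 CPM. Its neutrophil mean was 1.48 times its monocyte mean, close to the limit of the choice, yet the samples of both types overlapped.

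The members differed widely in level. Their mean ran from 2.01 to 258 CPM in neutrophils (median of the members 10.0) and from 2.23 to 247 CPM in monocytes (median 13.0). The lower of both means was at least 50 CPM in 24 members, at least 10 CPM in 50 and under 5 CPM in 33. The 10 highest members held 43.8% of the summed level in neutrophils and 40.9% in monocytes, the 20 highest held 66.4% and 62.1%, and 9 transcripts were among the 10 highest in both.

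The members also differed in how far they stood above lymphocytes. The r was at least 10 in 9 members, at least 5 in 23, at least 3 in 44 and at least 2 in 74, with a median of 2.63. The highest lymphocyte mean was under 1 CPM in 24 members and under 5 CPM in 59, and the highest of all was 80.1 CPM, in CD4 T cells, for the transcript of rank 63, whose neutrophil and monocyte means were 217 and 187 CPM. That transcript was abundant in every sorted type, with 41.2 CPM in its lowest lymphocyte sample. NK cells held the highest lymphocyte mean in 57 members, B cells in 26, CD4 T cells in 12 and CD8 T cells in 5. All 12 myeloid samples were above all 24 lymphocyte samples in 63 members, 46 of them among ranks 1 to 50 and 17 among ranks 51 to 100. The same held for 4.87% of all transcripts detected in these samples, and since the choice used these values nothing is read from the difference.

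**Figure D2:**
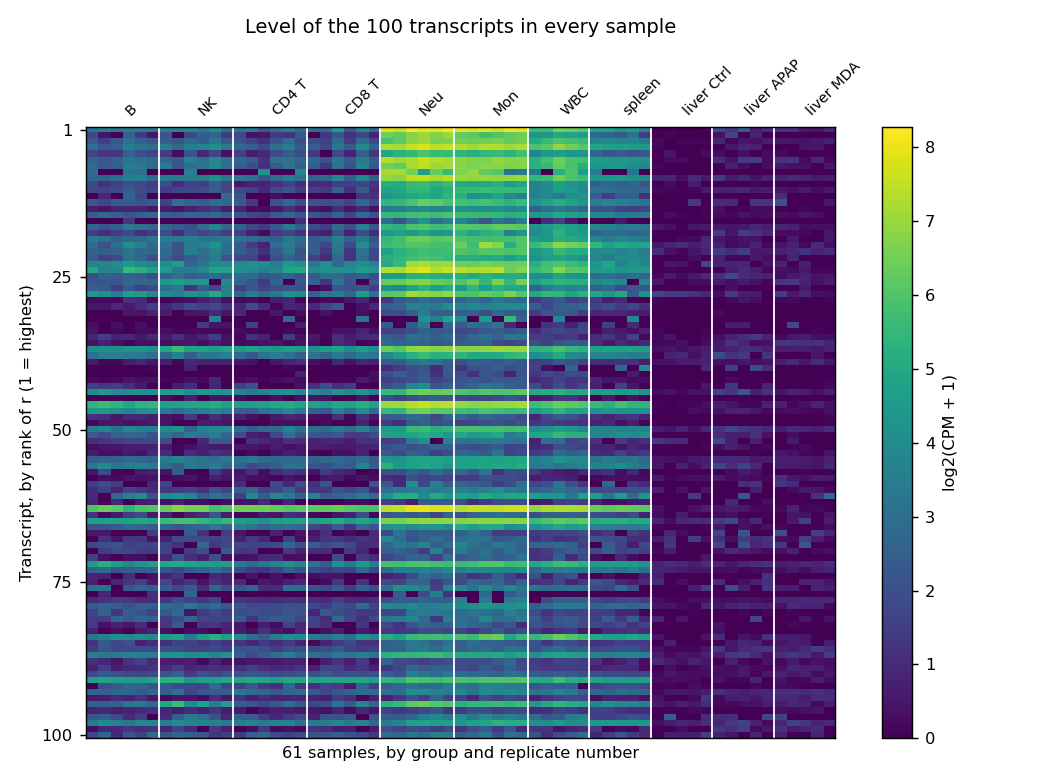
Level of the 100 transcripts (rows, ranked by r) in the 61 samples (columns, by group and replicate number) as log2(CPM + 1), color scale from 0 to above 8. The neutrophil and monocyte blocks are alike in color from row to row, lymphocytes show several bright rows lower in the ranking (rank 63 among them), whole blood cells are intermediate, and the livers are near 0.

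Within the limit set by the choice, 51 members were higher in neutrophils and 49 in monocytes. The 6 neutrophil and 6 monocyte samples overlapped in 93 members. In 3 members (ranks 6, 22 and 87) every neutrophil sample was above every monocyte sample (4.96% of all transcripts detected), and in 4 (ranks 11, 17, 21 and 50) every monocyte sample was above every neutrophil sample (21.8% of all). The transcript of rank 50, for example, had 22.5 to 48.5 CPM in neutrophils and 52.5 to 57.5 CPM in monocytes. The coefficient of variation of a member over the 6 samples had a median of 28.0% in neutrophils and 23.0% in monocytes, against 19.3% over 11671 and 11.4% over 12154 transcripts of at least 2 CPM in the same cells.

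The choice has a soft edge. The transcripts of ranks 98, 99 and 100 had r of 1.65, 1.65 and 1.63, and the 3 just outside had 1.63, 1.61 and 1.61. Rank 100 had means of 8.22 CPM in neutrophils and 6.16 CPM in monocytes with a highest lymphocyte mean of 3.39 CPM, and rank 101 had 34.6, 31.4 and 18.9 CPM. Membership also depended on the scaling of the libraries. With totals scaled by TMM, whose factors averaged 0.917 in neutrophils (0.786 to 1.08) and 1.17 in monocytes, 96 transcripts qualified and 57 of them were among the 100. Of the 43 members lost, 27 missed the limit on the neutrophil to monocyte ratio, all on the neutrophil side, 18 missed the limit on the liver mean, 2 the minimum level and 0 the limit on r, with 4 missing more than 1 limit.

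Replicates that took no part in a choice were read next. The choice was repeated 6 times without one replicate number in all 6 cell types, which gave 87 to 92 of the same members, and 69 members were found each time. In the replicate left out, the neutrophil and the monocyte sample were both above all 4 lymphocyte samples in 88, 79, 91, 88, 86 and 93 of the 100 transcripts chosen without replicates 1 to 6. The same was true of 12.2%, 10.9%, 16.9%, 18%, 18% and 18.9% of all transcripts detected in those samples. The equality of both myeloid types held less often there than their place above all 4 lymphocyte samples. It held in 56, 69, 67, 61, 62 and 80 of the 100 transcripts, which lay within the factor of 1.5. The median ratio of neutrophils to monocytes was 0.713 in replicate 1 and 0.848 in replicate 2, the neutrophil samples with the lowest sums, and 1.01 to 1.27 in replicates 3 to 6.

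Whole blood cells, which no part of the choice used, carried the 100 transcripts at an intermediate level. Their summed level was 1404, 1696, 2456, 1986 and 1759 CPM in replicates 1 to 5 (mean 1860 ± 392, n = 5). All 5 samples lay below the lowest neutrophil sample and above the highest lymphocyte sample, and the neutrophil and monocyte means were 2.02 and 1.86 times the WBC mean. The WBC mean of a member was lower than both its neutrophil and its monocyte mean in 93 members and above all 4 lymphocyte means in 92. Divided by the average of the neutrophil and monocyte means it had a median of 0.519, with quartiles of 0.414 and 0.651. In bulk samples such as these, fewer cells of a type and less RNA per cell cannot be told apart.

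Sample by sample, all 5 WBC samples were above all 24 lymphocyte samples in 42 members, against 3.91% of all transcripts detected. They were below all 12 neutrophil and monocyte samples in 29 members, against 2.09% of all. The lymphocyte and myeloid values of these counts had chosen the members, so the counts are a description. WBC replicate 3 was the highest of the 5 in 61 members and replicate 1 the lowest in 55, and across the 12140 transcripts of at least 2 CPM in whole blood cells the same libraries were highest in 40% and lowest in 49.1%.

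In 3 members the WBC mean was above both the neutrophil and the monocyte mean (ranks 20, 51 and 84). ENSRNOT00000050820, of rank 51, had 28.3, 31.5, 47.7, 35.9 and 37.4 CPM in whole blood cells, 20.9 to 34.3 CPM in neutrophils (median 27.5) and 8.93 to 32.4 CPM in monocytes. Its WBC samples overlapped both sorted types at their lower end. That of rank 20 had a similar spread in monocytes, at 34.4 to 140 CPM, with 47.7 to 117 CPM in whole blood cells. Its neutrophil samples were closer together, at 50.03 to 66.4 CPM.

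The comparison of spleen with whole blood cells describes how the shared transcripts follow tissues of unlike leukocyte composition. The choice took transcripts high in cells sorted from blood and low in cells sorted from spleen. Cell type and organ cannot be told apart in it, and lower spleen levels may in part follow from it. The members were lower in the spleen almost throughout: of 91 members tested, 67 (73.6%) were lower and 0 were higher (edgeR quasi-likelihood test, adjusted p under 0.05 over 13885 transcripts). Of all transcripts tested, 46.6% were called, 23.9% lower and 22.7% higher in the spleen. The median log2 fold change of the members was -1.34, from -4.25 to 1.249, against 0.02 over all transcripts, and it was negative in 85 members. The summed level was 917, 873, 876, 809 and 747 CPM in spleen replicates 1 to 5 (mean 844 ± 66.8, n = 5). Every spleen sample was thus below every WBC sample, and the WBC mean was 2.20 times the spleen mean. In CPM without TMM, the spleen samples did not overlap the WBC samples in 50 members, all lower, against 10.2% of all transcripts lower and 27.3% higher.

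The transcript of rank 1 had 24.4, 25.9, 19.1, 21.2 and 11.8 CPM in the spleen and 49.8, 49.8, 89.3, 80.4 and 67.1 CPM in whole blood cells. The groups did not overlap, and its log2 fold change was -1.88 (SE 0.199, adjusted p = 3.96e-05, edgeR). For rank 2, the levels were 6.32, 5.06, 4.104, 7.53 and 1.87 CPM in the spleen and 18.6, 19.0, 29.3, 27.2 and 23.8 CPM in whole blood cells. It also did not overlap, with a log2 fold change of -2.39 (SE 0.261, adjusted p = 4.77e-05, edgeR).

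The lowest log2 fold changes among members without overlap belonged to transcripts of low level. ENSRNOT00000034507 (rank 41) was listed at 0 in 4 of 5 spleen samples and at 0.516 CPM in replicate 4, and at 1.46, 2.39, 1.94, 2.79 and 2.35 CPM in whole blood cells. It was at 0 in the lymphocyte samples too, except CD4 T cell replicate 6 (0.637 CPM) and CD8 T cell replicate 6 (0.290 CPM). Its log2 fold change was -4.25 (SE 0.852, adjusted p = 0.00214, edgeR). The ratio of spleen to WBC by library totals was 0.0567, with a 95% counting interval of 0.0223 to 0.121. ENSRNOT00000081899 (rank 71) had 0.275, 0, 0.864, 0.200 and 0 CPM in the spleen and 1.32, 1.51, 4.59, 1.01 and 2.64 CPM in whole blood cells. Its highest spleen sample stayed under its lowest WBC sample, and its log2 fold change was -3.07 (SE 0.816, adjusted p = 0.0106, edgeR).

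**Figure D3:**
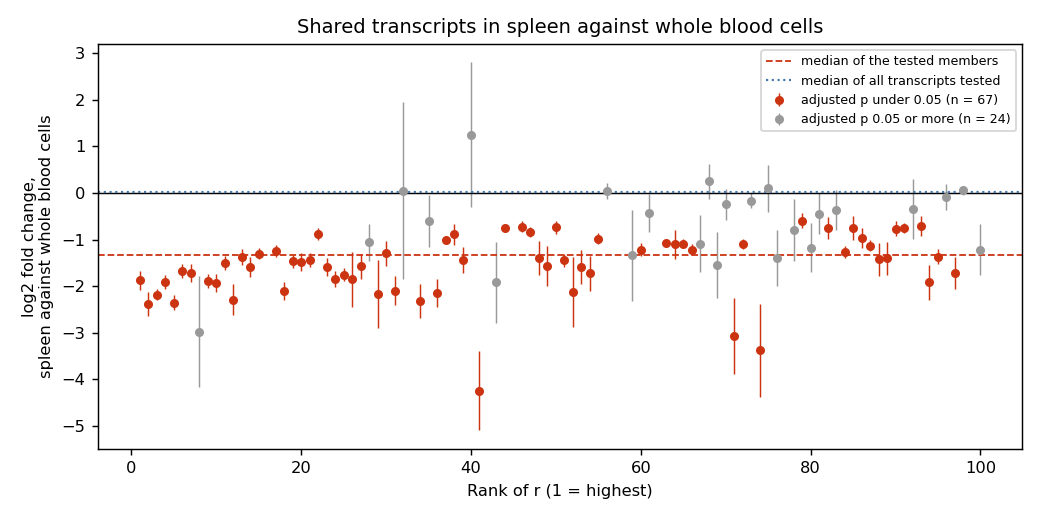
Log2 fold change of spleen against whole blood cells for the 91 members tested (points, with the standard error as bars), against the rank of r; red points have an adjusted p under 0.05 (n = 67), grey points do not (n = 24), and lines mark the median of the members (-1.34) and of all transcripts tested (0.02). The red points all lie below 0, and 40 of the 46 points of ranks 1 to 50 are red against 27 of the 45 of ranks 51 to 100.

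The calls were not spread evenly over the ranking. Among ranks 1 to 50, 40 of 46 tested were lower, with a median log2 fold change of -1.58, and among ranks 51 to 100, 27 of 45 were lower, with a median of -1.09. Across the 91 members the Spearman correlation of r with the log2 fold change was -0.517, a description across transcripts that share the same libraries. Since r divides by levels in lymphocytes sorted from the spleen, this trend may in part be set by the choice. The 9 members not tested had means of at most 0.895 CPM over the 10 samples, and 1 of them, of rank 77, was at 0 in all 10. The log2 fold change was positive in 6 members, and none of these was called.

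Against the lymphocytes the spleen stood only slightly higher. Its mean was above all 4 lymphocyte means in 59 members and below both myeloid means in 99, and the spleen mean plus 1 over the highest lymphocyte mean plus 1 had a median of 1.09. All 5 spleen samples were above all 24 lymphocyte samples in 13 members, against 0.822% of all transcripts detected. Side by side, the 100 transcripts led by neutrophils alone (88 tested) had 77 lower and 0 higher in the spleen with a median of -2.50. The 100 led by monocytes alone (81 tested) had 58 lower and 2 higher with a median of -0.83, so the median of the shared transcripts lay between those of both lists.

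The direction in the spleen did not depend on the scaling: with library totals in place of TMM, 63 members were lower and 0 higher. Of all 13885 transcripts, 6923 were then called, and the share of higher calls among those called moved from 48.8% to 70.5%. With WBC replicates 1 and 3 left out, 59 of 86 members were lower and 1, of rank 98, was higher.

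Livers held little of the shared transcripts by the choice itself. Their summed level was 22.04, 26.0, 18.2, 21.6 and 33.2 CPM in control replicates 1 to 5 (24.2 ± 5.73), 54.9, 52.6, 64.6, 43.2 and 37.1 CPM after APAP (50.5 ± 10.7) and 44.9, 40.9, 37.8, 31.1 and 35.7 CPM after MDA (38.1 ± 5.22, n = 5 each). The APAP livers were all above the controls, and the MDA livers overlapped them only through MDA replicate 4, since control replicate 5 was higher. More members were detected as well: 49 to 59 per control liver, 63 to 70 per APAP liver and 57 to 64 per MDA liver had a value above 0. In all, 23 members were above 0 in every liver and 6 in none. The mean of a member was above its control mean in 74 members after APAP and in 61 after MDA. The shares over all transcripts were not taken, so neither the detection counts nor these counts are read as a response of the members.

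The sums and the counts of higher means are on the scale of library totals, on which most transcripts rose. Over all transcripts tested, the median log2 change without TMM was 0.73 after APAP and 0.54 after MDA, against 0.06 and 0.02 with TMM, whose factors averaged 0.501 in control, 0.852 in APAP and 0.720 in MDA livers. The members are therefore tested relative to all transcripts, in 1 fit of the 15 livers over 18427 transcripts of at least 0.1 CPM, which included 75 members. Single values, and whether groups overlapped, stay in CPM by library totals. On that scale more of all transcripts lay apart upward than downward after either toxicant.

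After APAP, 8 of 75 members (10.7%) were higher and 4 (5.33%) were lower than in control livers (edgeR quasi-likelihood test, adjusted p under 0.05). The share of all transcripts called was 31.5%, with 16.1% higher and 15.4% lower. Their median log2 fold change was 0.43, which is 0.37 above that of all transcripts, and 63 members did not pass. The 8 that rose had ranks 1, 6, 18, 24, 44, 51, 86 and 99, and the 4 that fell had ranks 28, 39, 73 and 95. In CPM without TMM, the groups did not overlap in 5 members higher (31.8% of all transcripts) and 1 lower (3.7%).

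The transcript of rank 51, ENSRNOT00000050820, was at 0 in all 5 control livers and at 1.08, 0.607, 0.565, 1.15 and 0.288 CPM after APAP. Its mean after APAP was 0.739 ± 0.367 CPM, with an adjusted p of 0.00845 (edgeR). No fold is given, since all controls were at 0 and estimated counts are not reads. ENSRNOT00000077186 (rank 1) was at 0 in 4 control livers and at 0.0673 CPM in replicate 5, and at 2.39, 1.44, 4.54, 0.559 and 0.968 CPM after APAP. Both transcripts were at 0 or near it in control livers and present in each APAP liver. The adjusted p for rank 1 was 0.000145 (edgeR). By library totals without TMM, the ratio of its means was 119 with a counting interval of 20.9 to 4728, which the single control count leaves wide.

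ENSRNOT00000050227 (rank 73) went the other way. It had 0.808, 0.668, 0.499, 0.357 and 0.353 CPM in control livers and 0.196, 0.274, 0.101, 0.157 and 0.208 CPM after APAP, so all APAP livers were below all controls. Its log2 fold change was -2.22 (SE 0.581, adjusted p = 0.00847, edgeR).

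The count of members higher after APAP was 15 with library totals in place of TMM, with 1 lower. Of all 18427 transcripts, 8976 were then called. Higher calls made up 93.8% of the members called and 88.3% of all transcripts called, against 66.7% and 51.1% with TMM. The count of higher members was 4 without control replicate 4 and 5 without APAP replicate 1, 3 or 4 or control replicate 1. The count of lower members was 1 or 2 without APAP replicate 1 or 3 or control replicate 1, 3 or 5. The median was 0.65 and 0.68 without control replicates 1 and 5.

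After MDA, which shares its controls with APAP, 4 of 75 members (5.33%) were higher and 0 were lower (edgeR quasi-likelihood test, adjusted p under 0.05). Of all transcripts, 16.1% were called, 7.99% higher and 8.07% lower. The 4 members had ranks 1, 36, 78 and 86, and the median log2 fold change of the members was 0.28. In CPM without TMM, the groups did not overlap in 7 members higher (22.2% of all) and 0 lower (2.41%). DESeq2 also gave 0 members lower.

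ENSRNOT00000088042 (rank 36) had 0.0836, 0.156, 0.302, 0 and 0.204 CPM in control livers and 1.36, 1.35, 1.19, 1.27 and 0.816 CPM after MDA. Every MDA liver was above every control in CPM, with a log2 fold change of 2.37 (SE 0.657, adjusted p = 0.0219, edgeR). The ratio of means, by library totals without TMM and so on another scale, was 7.69 (counting interval 3.84 to 17.5). Its APAP livers, at 0.172 to 1.32 CPM, spread from the control range to the MDA range. ENSRNOT00000077186 had 1.248, 1.249, 0.469, 0.358 and 1.01 CPM after MDA, above all controls again, with an adjusted p of 0.00149 (edgeR). Its ratio by library totals was 50.5 (counting interval 8.69 to 2031).

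With library totals in place of TMM, 12 members were higher after MDA and 0 lower. Of all 18427 transcripts, 6449 were then called. Higher calls made up 90.3% of them, against 49.7% of those called with TMM. Without MDA replicate 4, 1 member, of rank 38, was lower, and the median lay between 0.10 (without MDA replicate 2) and 0.47 (without control replicate 5), with values of 0.17, 0.15, 0.17 and 0.15 without control replicates 3 and 4 and MDA replicates 1 and 5. The median was 0.12 with the stricter filter and 0.43 with only the groups compared.

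The direct comparison of both toxicants tests their difference without the controls. Of 75 members, 6 (8%) were higher and 2 (2.67%) lower in APAP than in MDA livers (edgeR, adjusted p under 0.05), against 12.1% and 12.2% of all transcripts and 24.3% in all. Those higher had ranks 2, 18, 38, 40, 44 and 51, and those lower had ranks 39 and 78. With only the 2 groups compared, 4 of 80 members tested were higher and 1 lower. The median log2 fold change was 0.25. In CPM without TMM, the groups did not overlap in 2 members higher (12.6% of all) and 1 lower (7.05%).

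ENSRNOT00000050820 was at 0 in 4 MDA livers and at 0.276 CPM in MDA replicate 2, all below the APAP livers given above. Its log2 fold change of APAP against MDA was 3.57 (SE 1.13, adjusted p = 0.0406, edgeR), with a ratio of means by library totals of 15.6. That ratio rests on 42 against 3 estimated counts, which the test used as well. The MDA counts all came from replicate 2 and may stand for fewer reads, so no counting interval is given. The call was lost without any 1 of APAP replicates 1 to 4 or MDA replicates 1, 3, 4 and 5, with adjusted p-values of 0.0592 to 0.0809 (edgeR). ENSRNOT00000075606 (rank 78) had 0.934, 0.793, 1.002, 0.909 and 0.880 CPM after MDA, 0.226, 0.254, 0.369, 0.314 and 0.208 CPM after APAP and 0.250, 0.110, 0.0600, 0.203 and 0.301 CPM in controls. MDA livers stood apart from both other groups, which overlapped, and the log2 fold change of APAP against MDA was -1.89 (SE 0.454, adjusted p = 0.00682, edgeR).

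**Figure D4:**
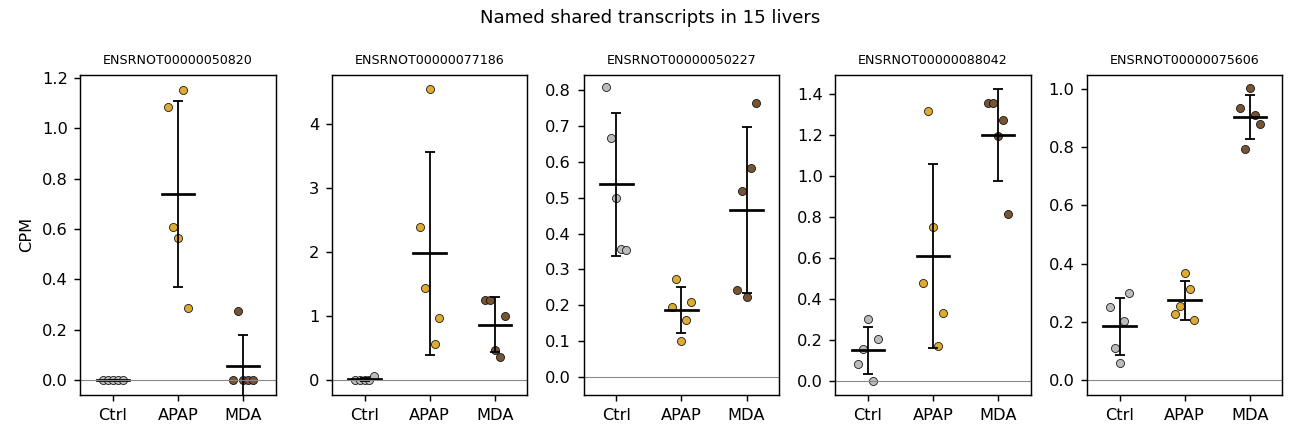
Level of the 5 named transcripts in the 15 livers (points, CPM) with the mean (line) and SD (bars) of control, APAP and MDA livers, 5 each; each panel has its own scale. ENSRNOT00000050820 is present in each APAP liver (0.288 to 1.15 CPM) and in 1 MDA liver, ENSRNOT00000077186 in each treated liver, ENSRNOT00000050227 is lowest after APAP, and ENSRNOT00000088042 and ENSRNOT00000075606 are highest after MDA.

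The count of members higher in APAP than in MDA livers was 1 without MDA replicate 3 and 2 or 3 without any 1 of the other MDA livers or of APAP replicates 1 to 4, the count of lower members was 1 without APAP replicate 1, 2 or 4 or MDA replicate 2 or 4, and the median was 0.11 to 0.16 without APAP replicate 2, 3 or 4 or MDA replicate 3. With library totals in place of TMM, 4295 of all transcripts were called. Higher calls made up 64.9% of them against 49.8%, and 85.7% of the members called against 75%. For the lists led by neutrophils alone (47 tested) and by monocytes alone (68 tested), the counts higher and lower were 11 and 4 and 8 and 2 after APAP, 2 and 1 and 2 and 1 after MDA, and 5 and 1 and 1 and 2 for APAP against MDA. The depth limits all liver values: the named members had between 0 and 114 estimated counts over the 5 livers of a group.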

How the data were processed

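RNA was sequenced as paired-end libraries from 61 samples, in the groups of the sample labels. The authors trimmed reads with PRINSEQ++, quantified transcripts with Salmon 1.6.0 against the Ensembl cDNA of Rnor_6.0 and imported them with tximport in R 4.1.3 (the processing notes also list mRatBN7.2). The methods give TPM, but the deposited values follow the library size and 0% of those above 0 are whole, so they were treated as estimated counts and rounded for tests. The test planned for this case was used.

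The 100 members, the comparison lists and the tests were chosen with earlier results of these data known. Groups were compared with edgeR 4.0.16 (quasi-likelihood, TMM, Benjamini-Hochberg over all transcripts tested, threshold 0.05) in R 4.3.3, for spleen and whole blood cells (mean of at least 1 CPM) and for 15 livers in 1 fit (at least 0.1 CPM). On simulated counts, 69% of 2-fold and 90% of 4-fold changes were called for spleen and blood. For APAP and control livers, 34% and 77% were called. The changes were set in transcripts of at least 0.5 CPM, while the median member had 0.373 CPM in APAP livers. Recovery at the members' liver levels was not tested. The lists led by neutrophils alone and by monocytes alone were drawn likewise, as the 100 transcripts with the highest ratio to all other sorted types and a liver mean under 1 CPM. Identifiers named are the 2 members of highest r and, per comparison, at most 2 that rose and 2 that fell, with the largest and smallest log2 fold change among those past the threshold whose groups did not overlap. Overlap was read in CPM by library totals, without TMM. Members given by rank alone were picked after their values were seen. Ratios of means use library totals without TMM, so they and the log2 fold changes of edgeR are on different scales. Except for ENSRNOT00000050820, these ratios have exact binomial counting intervals on summed estimated counts, which leave the scaling out. Of 31196 transcripts, 5831 were at 0 in all samples. No gene names or sequences could be assigned, as 0 identifiers matched 47357 RefSeq genes of GRCr8.

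Alternatives were library totals without TMM, limma 3.58.1 on log2(CPM + 0.1), DESeq2 1.42.0, no filter, a filter of 5 CPM (spleen and blood) or 0.5 CPM (liver), only the groups compared, the replicate number as a block, each replicate left out, and other settings of the choice. Leaving out neutrophil replicate 5 alone, CD8 T cell replicates 3 and 5, or WBC replicates 1 and 3 was added after seeing the data. Values were summarized with Python 3.11.15, pandas 2.3.3, numpy 2.4.6 and scipy 1.17.1, and plotted with matplotlib 3.10.9.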

Additional observations from a re-analysis of the deposited data

Results flagged for a closer look

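In 44 groups of 5 or 6 samples of the named transcripts, 3 samples lay far from the rest of their group, and chance flags about 1 in 20 groups of continuous values. In all 3 cases the other samples of the group were at 0, so that any single value above 0 had to stand apart whatever its size. ENSRNOT00000034507 was at 0.516 CPM in spleen replicate 4 and at 0 in the other 4 spleens. ENSRNOT00000077186 was at 0.0673 CPM in control liver replicate 5 and at 0 in the other 4 control livers. ENSRNOT00000050820 was at 0.276 CPM in MDA liver replicate 2 and at 0 in the other 4 MDA livers.

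The response to the toxicants differed between APAP and MDA in 2 of the named transcripts by the test of that difference. That test was among those by which the named transcripts were chosen, so their passing it is no separate result. ENSRNOT00000050820 was higher after APAP by a log2 fold change of 3.57 (adjusted p = 0.0406, edgeR), and all 5 APAP livers were above all 5 MDA livers. Its call was lost with no filter, with the replicate number as a block and without several of the single livers. ENSRNOT00000075606 was lower after APAP, with a log2 fold change of -1.89 (adjusted p = 0.00682, edgeR), and all 5 APAP livers were below all 5 MDA livers.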

How the results depend on the processing

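No median of the members changed direction under any alternative run, and no named transcript did where it was tested. Some named transcripts of low level were not tested under the stricter filter or without a certain replicate. In the spleen, 63 to 69 members were lower and 0 higher under no TMM, limma, DESeq2 and no filter. With the stricter filter 44 of 50 members tested were lower, and with WBC replicates 1 and 3 left out 1 member was higher in the spleen. The choice kept 57 of its members with TMM-scaled totals and 59 with a narrower window of the neutrophil to monocyte ratio, and 61 of 85 and 41 of 57 members so chosen were lower in the spleen. After APAP, 15 members were higher with no TMM, 20 with limma and 5 with the stricter filter, and 1 was lower with no TMM, 1 with only the groups compared and 2 with the stricter filter, with medians of 1.06 (no TMM) and 0.95 (limma). After MDA, 12 members were higher with no TMM and 12 with limma, with medians of 0.80 and 0.63, and the median was 0.12 with the stricter filter and 0.43 with only the groups compared. The median over all transcripts was 0.73 (no TMM) and 0.69 (limma) after APAP and 0.54 and 0.53 after MDA, so the members lay 0.33 and 0.26 above it after APAP and 0.25 and 0.10 after MDA, against 0.37 and 0.25 with TMM. In APAP against MDA livers 2 members were higher with the stricter filter, 1 was lower with no TMM, limma, only the groups compared and the stricter filter, and the median was 0.41 with no TMM. For ENSRNOT00000050820 the difference between toxicants missed the threshold with no filter (adjusted p = 0.0510, edgeR). The cause of these changes was not tested, except that the stricter filter leaves 32 liver members. Among the alternatives, the number of all transcripts called is given above only for library totals without TMM. The other counts of members, also those with 1 replicate left out, have no such share beside them. They describe how far the calls moved and are not read as an excess.

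Leaving out 1 replicate at a time gave 87 to 92 of the same members, 61 to 72 members lower and 0 higher in the spleen (medians -1.39 to -1.19), 4 to 8 higher and 1 to 4 lower after APAP (0.41 to 0.68), 3 to 5 higher and 0 to 1 lower after MDA (0.10 to 0.47), and 1 to 6 higher and 1 to 2 lower in APAP against MDA livers (0.11 to 0.37).

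Deviations of same-numbered samples correlated weakly, at -0.187 to 0.112. Between APAP and MDA livers these correlations were all positive, at 0.0259 to 0.103. There 4 of 5 samples correlated best with their own number, against 1 of 5 in each other comparison. Whether same-numbered livers of both toxicants share a batch was not tested. With the replicate number as a block, 63 members were lower and 0 higher in the spleen, 2 were lower after APAP, and 2 were higher and 1 lower in APAP against MDA livers (ENSRNOT00000050820 at adjusted p = 0.0640, edgeR).

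Low liver levels limit precision, with a median standard error of 0.985 (log2) after APAP against 0.234 for the spleen.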

Other observations

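Some members were listed at 0 in part of the myeloid samples and well above 0 in the rest. ENSRNOT00000075606, named for the livers, had 10.9, 9.42, 9.32 and 10.5 CPM in monocyte replicates 1, 3, 5 and 6 and was at 0 in replicates 2 and 4, while its 6 neutrophil samples lay between 2.99 and 6.02 CPM. It was also at 0 in WBC replicate 1 and at 2.65 to 5.33 CPM in the other 4. The transcript of rank 32 was at 0 in neutrophil replicates 1, 2 and 3 and monocyte replicates 2 and 4 and reached 45.2 CPM in monocyte replicate 5. The transcript of rank 77 was at 0 in neutrophil replicates 1 and 3, in monocyte replicates 1, 2 and 4 and in every whole blood and spleen sample, and reached 10.1 CPM in neutrophil replicate 5, the sample with the lowest total. In all, 4 members were at 0 in at least 1 neutrophil sample and 4 in at least 1 monocyte sample. Whether reads were shared with other transcripts of the same gene was not tested.

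Among the lymphocytes, replicate 5 was the highest CD4 T cell sample in 47 members and the highest CD8 T cell sample in 43, and the same libraries were highest in 24.7% and 21.5% of all transcripts of at least 2 CPM in those cells. Neutrophil replicate 4 was highest in 48 members, against 21.6% of all transcripts.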
